A study of Mus musculus with 12 samples.

Results

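The B cell identity transcription factors are the genes whose protein products set up and maintain the gene expression of a mature B cell. They are 10 of the 24325 gene symbols measured, and were taken by symbol: Pax5, Ebf1, Spib, Spi1, Ets1, Irf8, Bach2, Bcl6, Foxo1 and Pou2af1. All 10 passed the filter on low values, so every one was tested, and their levels were compared across 3 stages of plasma cell formation and 2 Mzb1 genotypes. Splenic B cells of C57BL/6 mice, isolated on B220 beads, grew for 4 days in medium with 25 µg/ml of lipopolysaccharide (LPS), a bacterial product that drives B cells to divide and secrete antibody, before they were sorted. Activated B cells (ActB) lacked both CD138 and the green fluorescent protein reporter of Prdm1, pre-plasmablasts (PrePB) had the reporter without CD138, and plasmablasts (PB) had both. The genotypes were Mzb1+/+ Prdm1+/gfp (wt) and Mzb1-/- Prdm1+/gfp (ko), so the cells of both carried a reporter allele in place of 1 copy of Prdm1. There were 12 libraries, 2 for each of the 6 groups. The labels do not say whether the libraries of a group came from separate animals. Xist and Ddx3y, given with the library values, put the 2 libraries of each wt group in cells of opposite sex, hence of different animals, whereas in ko the spread between libraries may be technical.

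A mature B cell is held in its state by a network of transcription factors. Pax5 and Ebf1 activate genes of the B cell receptor complex and its co-receptors, Pax5 also represses genes of other lineages and of plasma cells, and Spib, Spi1 and Irf8 work beside them on B cell enhancers. Bach2 and Bcl6 repress Prdm1, which encodes Blimp1, and Blimp1 in turn represses Pax5, Spib and other B cell genes when a cell becomes a plasma cell. Mzb1 encodes an endoplasmic reticulum protein of B cells and plasma cells that assists the chaperone Grp94.

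The promoters of the 2 members that fell furthest and of the 1 that rose most are shown first, since the results turn on these genes. RefSeq windows of the GRCm38.p6 build were matched for 8 of the 10 members, with none for Spi1 and Ets1. Each run is the 250 bases before the annotated start, read 5′ to 3′ on the strand of the gene, and capitals mark a match to one of 5 searched motifs. The windows lie at chr4:44710695-44710944 on the minus strand (Pax5), chr7:44532072-44532321 on the minus strand (Spib) and chr9:51213440-51213689 on the plus strand (Pou2af1).
Pax5: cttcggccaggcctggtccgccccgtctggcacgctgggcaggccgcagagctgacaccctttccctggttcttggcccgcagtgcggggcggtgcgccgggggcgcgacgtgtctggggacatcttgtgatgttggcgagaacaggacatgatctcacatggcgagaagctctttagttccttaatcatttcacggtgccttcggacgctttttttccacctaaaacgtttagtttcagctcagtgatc
Spib: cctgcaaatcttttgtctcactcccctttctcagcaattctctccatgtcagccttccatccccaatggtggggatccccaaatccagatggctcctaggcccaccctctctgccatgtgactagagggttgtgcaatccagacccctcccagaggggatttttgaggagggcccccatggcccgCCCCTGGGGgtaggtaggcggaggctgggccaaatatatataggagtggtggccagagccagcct
Pou2af1: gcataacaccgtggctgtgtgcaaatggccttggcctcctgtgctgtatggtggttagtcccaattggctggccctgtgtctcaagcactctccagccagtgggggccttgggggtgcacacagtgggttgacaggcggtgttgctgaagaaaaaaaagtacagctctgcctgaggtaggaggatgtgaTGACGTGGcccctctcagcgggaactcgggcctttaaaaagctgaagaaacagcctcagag
The motifs, each searched on both strands, were GTGAAAG (the core bound by Blimp1 and interferon regulatory factors), GGAAGT (ETS factors), ATGCAAAT (the octamer bound by Oct factors), CCCNNGGG (Ebf1) and TGACGTGG (Xbp1). The last was added after the Pou2af1 sequence had been seen. The Spib window held 2 overlapping CCCNNGGG matches that begin 65 and 64 bases before the start, and the Pou2af1 window held 1 TGACGTGG match that begins 61 bases before it. No searched letters were in the Pax5 window. Of 32851 windows of this length, 11.8% held CCCNNGGG, 0.563% TGACGTGG, 19.7% GGAAGT, 3.57% GTGAAAG and 1.6% ATGCAAAT. Among the other member windows, 1 of Ebf1 held GGAAGT and the window of Foxo1 held CCCNNGGG. These matches describe letters only and no binding was measured.

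The libraries held 418966 to 581262 FPKM in total, a unit of fragments per length of transcript and size of library, and the absolute depth is unknown. Mzb1 lay at 845 to 17359 FPKM in the wt libraries and at 273 to 1008 in the ko libraries, lower in ko at every stage. Prdm1 rose from 19.2 to 25.4 FPKM in ActB to 218 to 324 in the other libraries, and Sdc1, which encodes CD138, reached 66.5 to 98.4 in PB, as the sort sets them. The 6 B cell markers summed to at least 8472 FPKM in every library. Among markers of other cells, the T cell sum was at most 9.33 FPKM, carried by Cd3g with Cd3e at 0 in 10 libraries, and the erythroid and platelet sum at most 0.341. The natural killer sum was at most 6.01, nearly all Eomes with Ncr1 at 0 in 12, and the dendritic cell sum at most 22.9, nearly all Flt3 with Clec9a at 0 in 12. Higher than these was the macrophage and granulocyte sum in ActB, at 86.6 to 92.5 FPKM in wt and 128 to 135 in ko, nearly all Itgam and Adgre1. The libraries also differed in ways that no group names. In wt replicate 1 of all 3 populations Xist, the RNA of the inactive X chromosome, lay at 33.3 to 81.4 FPKM, and it was at most 0.389 in the other 9 libraries. Ddx3y, a gene of the Y chromosome, was at most 0.0479 FPKM in those 3 libraries and 15.7 to 22.0 in the other 9, so wt replicate 1 was female and all others male. A pattern in the low values separated both ko PB libraries and replicate 2 of ko ActB and ko PrePB from the other 8 libraries, so in PB this pattern of low values and the genotype cannot be told apart.

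Differentiation took the identity factors apart. In both genotypes 6 of the 10 fell from ActB to PB, namely Pax5, Spib, Spi1, Bach2, Ebf1 and Irf8, where 31% of all tested genes fell in wt and 30.9% in ko, while Pou2af1 rose. Over the 12 libraries Ets1, Bcl6 and Foxo1 spanned ranges of 1.37-fold, 1.84-fold and 1.93-fold, beside 2.12-fold for Spi1. The falls were of very unequal size. In wt PB, Spib kept 0.944% of its ActB level and Pax5 1.6%, Bach2, Ebf1 and Irf8 kept 21.6%, 29.2% and 31.3%, and Spi1 kept 63.9%. The bulk libraries cannot tell fewer cells with a transcript from less of it in each cell.

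**Figure D1:**
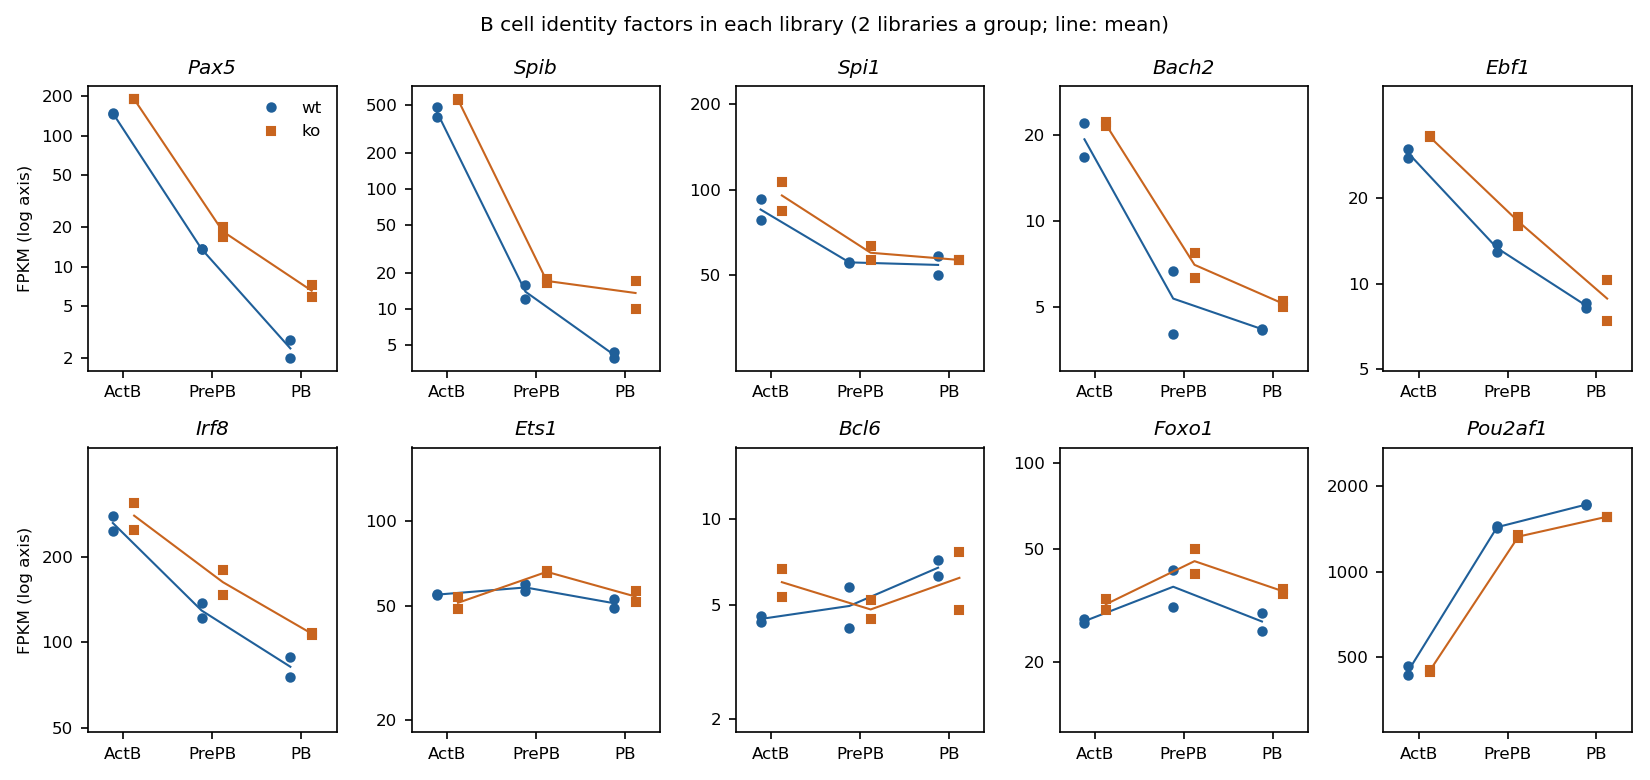
FPKM (log axis) of the 10 members in ActB, PrePB and PB, with 1 point per library, wt as circles and ko as squares, and lines through the means of 2 libraries. Pax5 and Spib drop steeply at the first step and their ko PB points lie above the wt ones, and Pou2af1 climbs from 432 to 1723 FPKM. Ets1, Bcl6 and Foxo1 span 1.37-fold, 1.84-fold and 1.93-fold over the libraries, and Spi1 2.12-fold.

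Pax5, the factor that commits a cell to the B lineage and keeps it there, was at 151 and 147 FPKM in wt ActB, 13.6 and 13.8 in wt PrePB, and 2.02 and 2.76 in wt PB. In ko cells the libraries held 189.7 and 191 FPKM in ActB, 17.0 and 20.2 in PrePB, and 7.24 and 5.92 in PB. No 2 groups overlapped, and their order was ko ActB, wt ActB, ko PrePB, wt PrePB, ko PB and wt PB. By limma with Benjamini-Hochberg adjustment, the log2 change of FPKM + 1 was -3.35 in wt PrePB against ActB (SE 0.12, adjusted p = 1.2e-08) and a further -2.13 in PB against PrePB (adjusted p = 1.42e-05). The same steps in ko cells gave -3.29 (adjusted p = 1.14e-08) and -1.37 (adjusted p = 0.000204). Addition of 1 FPKM before the logarithm understates the change of a low gene: as a ratio of mean FPKM, Pax5 was 62.4-fold lower in wt PB than in wt ActB, and 28.9-fold lower in ko.

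Ebf1, which acts with Pax5 and lies upstream of it early in B cell development, fell by much less. It lay at 27.7 and 29.7 FPKM in wt ActB, 12.9 and 13.7 in wt PrePB, and 8.52 and 8.23 in wt PB, and at 32.9 and 32.6, 17.1 and 15.9, and 10.3 and 7.41 in the ko groups of that order. The PB libraries of the genotypes overlapped and no other neighbours in the order did. The falls at the first step were -1.05 in wt (SE 0.12, adjusted p = 4.07e-05) and -0.95 in ko (adjusted p = 8.97e-05), and those at the second -0.61 (adjusted p = 0.0151) and -0.84 (adjusted p = 0.00271). Without any 1 of the 4 wt libraries the second fall lost its call (adjusted p 0.0577 to 0.096). The difference between the steps of Ebf1 missed the threshold in wt (0.44, adjusted p = 0.179) and in ko (0.10, 95% interval -0.38 to 0.58). The ratio of Pax5 to Ebf1 within a library went from 4.96 to 5.87 in ActB to 0.996 to 1.27 in PrePB, and in PB to 0.237 and 0.335 in wt against 0.703 and 0.799 in ko. The other Ebf genes that could stand in for it were not expressed: Ebf2 was listed at 0 in every library, and Ebf3 and Ebf4 reached at most 0.0869 FPKM.

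Spib, an ETS factor of lymphoid cells, was the most abundant falling member in ActB. The wt libraries held 395 and 482 FPKM in ActB, 12.2 and 15.7 in PrePB, and 4.37 and 3.91 in PB. The ko libraries held 543 and 558 in ActB, 16.3 and 17.9 in PrePB, and 17.2 and 9.94 in PB. Nearly all of the fall from ActB was already present in PrePB, which had the reporter without CD138. PrePB cells kept 3.17% of the ActB level in wt and 3.11% in ko, with log2 changes of -4.88 (SE 0.20, adjusted p = 2.23e-08) and -4.93 (adjusted p = 2.04e-08). From PrePB to PB Spib fell again in wt (-1.53, adjusted p = 0.00194), and in ko the change missed the threshold (-0.36, 95% interval -0.81 to 0.09, adjusted p = 0.307). That ko value rests on replicate 1 of ko PB: without it the fall was -0.73 (adjusted p = 0.0288).

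Spi1 encodes PU.1, the ETS factor most like Spib, which binds the same core sequence and is shared with myeloid cells. Its libraries held 77.9 and 92.3 FPKM in wt ActB, 55.5 and 55.6 in wt PrePB, and 50.2 and 58.6 in wt PB. In ko the values were 84.4 and 106, 56.4 and 63.6, and 56.5 and 56.8. The 4 ActB libraries lay above the other 8, among which the groups largely overlapped. Spi1 fell at the first step in wt (-0.60, SE 0.12, adjusted p = 0.00207) and in ko (-0.65, adjusted p = 0.00122), and at the second the changes were -0.03 and -0.08 with adjusted p = 0.907 and 0.751. Within a library, Spib stood at 5.06 to 6.43 times Spi1 in ActB and at 0.219 to 0.289 times in PrePB, so that the order of the pair was inverted at the first step. In PB the ratio was 0.087 and 0.0668 in wt and 0.305 and 0.175 in ko. Spic, the remaining member of this ETS subfamily, did not pass the filter and was at most 0.461 FPKM.

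Ets1, an ETS factor that restrains plasma cell formation, moved little. Its libraries spanned 48.8 to 66.8 FPKM, a range of 1.37-fold. In wt the values were 55.3 and 54.7 in ActB, 56.6 and 59.9 in PrePB, and 49.6 and 53.0 in PB, and no step was called, although after libraries were rescaled to equal totals the second was (-0.34, adjusted p = 0.0223). In ko they were 48.8 and 54.1, 66.8 and 65.5, and 51.8 and 56.5, so ko PrePB stood above all other groups. Ets1 rose at the first step in ko (0.36, SE 0.08, adjusted p = 0.00349) and fell at the second (-0.28, adjusted p = 0.0484), a call lost without any 1 of the 4 libraries (adjusted p 0.0937 to 0.214) and with a term for the pattern of low values (0.0621). The whole change from ActB to PB depended on the scaling. In ko its sign turned, from 0.07 as deposited (adjusted p = 0.461) to -0.22 after rescaling (adjusted p = 0.0278), and in wt it went from -0.10 (adjusted p = 0.307) to -0.50 (adjusted p = 0.000182).

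Of the 12 other ETS factors tested, 4 were higher and 5 lower in wt PB than in wt ActB, with a median log2 change of -0.15 against -0.01 for all tested genes, of which 31% were called in each direction. The ETS counts lie near that share. Elf4 fell from 36.1 and 34.0 to 11.6 and 12.6 FPKM (-1.46, adjusted p = 2.06e-07) and Etv6 by -0.94, while Ets2 (1.64) and the repressor Erf (1.13) rose. In ko PB against ko ActB 4 were higher and 4 lower.

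Irf8, an interferon regulatory factor that pairs with PU.1 and favours the B cell state, lay at 247 and 278 FPKM in wt ActB, 137 and 121 in wt PrePB, and 88.9 and 75.3 in wt PB. In ko it lay at 247 and 309.7, 147 and 179, and 106 and 108. It fell at both steps in both genotypes. The log2 changes were -1.01 (SE 0.14, adjusted p = 0.000105) and -0.65 (adjusted p = 0.0168) in wt, and -0.77 (adjusted p = 0.000746) and -0.59 (adjusted p = 0.0221) in ko. The second-step call was lost in wt without replicate 1 of PrePB (adjusted p = 0.105) or replicate 2 of PB (0.142), and in ko without replicate 2 of PrePB (0.133) or either PB library (0.0858 and 0.107). Irf4, the factor that takes the same partners and drives plasma cell formation, went the other way, from 64.5 to 79.3 FPKM in ActB to 223 to 275 in PrePB and 266 to 310.1 in PB (1.98 in wt PB against ActB, adjusted p = 1.7e-07). The ratio of Irf8 to Irf4 within a library was 3.12 to 4.38 in ActB, 0.505 to 0.778 in PrePB and 0.26 to 0.406 in PB. Of the 7 other interferon regulatory factors, 4 rose and 1 fell in PB against ActB in both genotypes, where 31% of all genes rose in wt and 31.2% in ko. The largest rise was that of Irf7, which drives type I interferon genes, from 5.67 and 5.65 to 129 and 146 FPKM in wt (4.37, adjusted p = 7.96e-09), and Irf5 fell (-1.44).

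Bach2, a repressor of Prdm1 that holds B cells back from secretion, was at 22.0 and 16.7 FPKM in wt ActB, 3.99 and 6.68 in wt PrePB, and 4.19 and 4.15 in wt PB. In ko it was at 22.2 and 21.5, 6.28 and 7.75, and 5.0 and 5.25. The ActB libraries stood apart from all others, and the groups beyond them overlapped in part. Bach2 fell at the first step (-1.70 in wt, SE 0.19, adjusted p = 2.56e-05, and -1.52 in ko, adjusted p = 6.22e-05), and the second step was not called (-0.26 and -0.38, adjusted p = 0.442 and 0.242). Bach1, its paralog with the same small Maf partners, rose from 2.71 to 4.71 FPKM in ActB to 15.2 to 20.5 in PB (2.17 in wt, adjusted p = 4.04e-06). The ratio of Bach2 to Bach1 thereby went from 4.47 to 8.18 in ActB to 0.203 to 0.329 in PB.

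Bcl6, the repressor that governs germinal centre B cells, was at most 7.67 FPKM, the lowest such maximum among the members. The wt libraries held 4.58 and 4.37 FPKM in ActB, 4.17 and 5.77 in PrePB, and 6.31 and 7.23 in PB, and the ko libraries 6.70 and 5.35, 5.21 and 4.46, and 7.67 and 4.80. Every neighbouring pair of groups in the order overlapped. Bcl6 was called higher in wt PB than in wt ActB (0.50, SE 0.20, adjusted p = 0.0459). The call did not hold after rescaling to equal totals (0.15, adjusted p = 0.553), without any 1 of the 4 libraries compared (adjusted p 0.0714 to 0.187), or without a filter (0.0972). In ko the same comparison gave 0.02 (95% interval -0.42 to 0.46).

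Foxo1, a factor that phosphoinositide 3-kinase signals keep out of the nucleus and that activates homing and survival genes in B cells, was highest in PrePB in both genotypes. It lay at 28.2 and 27.4 FPKM in wt ActB, 31.3 and 42.2 in wt PrePB, and 25.8 and 29.8 in wt PB, and in ko at 30.5 and 33.3, 40.6 and 49.8, and 34.7 and 36.1. The first step was called in wt (0.37, SE 0.14, adjusted p = 0.0426) and in ko (0.48, adjusted p = 0.013). After rescaling neither was called (0.13, adjusted p = 0.422, and 0.34, adjusted p = 0.057). The wt rise was 0.17 without replicate 2 of wt PrePB (adjusted p = 0.352) and was not called without either wt ActB library (0.104 and 0.139), and the ko rise was not called without replicate 1 of ko ActB (0.0751) or replicate 2 of ko PrePB (0.111). The second step was called in neither genotype (-0.38 and -0.34, adjusted p = 0.12 and 0.161), but in both it was after rescaling (-0.54, adjusted p = 0.0308, and -0.48, adjusted p = 0.0449), and in wt also with the replicate number as a block (adjusted p = 0.0479) or without replicate 1 of wt PrePB (-0.59, adjusted p = 0.0481). Its paralogs Foxo3 and Foxo4 rose through both steps, Foxo3 from 13.1 and 13.3 to 37.0 and 38.9 FPKM in wt (1.45, adjusted p = 2.24e-06) and Foxo4 by 1.14. Foxo1 was 1.96 to 2.15 times Foxo3 in ActB and 0.697 to 0.808 times in PB.

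Pou2af1 encodes OBF1, the coactivator that docks on Oct1 and Oct2 at octamer sites and is needed for germinal centres, and it was the only member with a large rise. The libraries held 466 and 432 FPKM in wt ActB, 1442 and 1425 in wt PrePB, and 1717 and 1723 in wt PB. In ko they held 443 and 454, 1309.6 and 1347, and 1560.3 and 1560.1. ActB overlapped between genotypes, and in PrePB and PB both wt libraries lay above both ko libraries. The rise at the first step was 1.67 in wt (SE 0.09, adjusted p = 1.31e-07) and 1.56 in ko (adjusted p = 2.1e-07), and the second step gave 0.26 and 0.23 with adjusted p = 0.105 and 0.14. Its DNA-binding partner Oct2, encoded by Pou2f2, fell from 149 and 143 to 70.8 and 69.8 FPKM in wt (-1.04 in PB against ActB). The ratio of Pou2af1 to Pou2f2 thus went from 2.32 to 3.13 in ActB to 16.5 to 24.7 in PB.

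**Figure D2:**
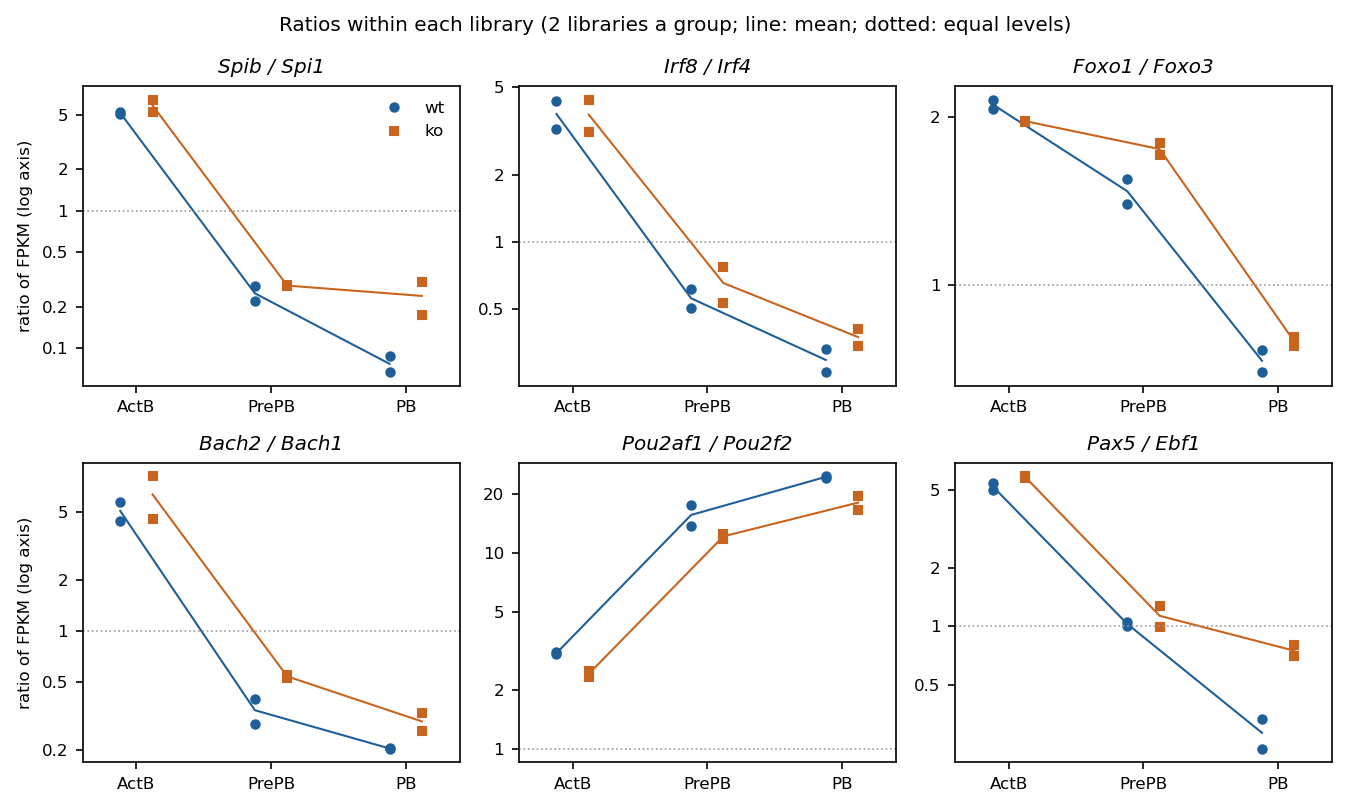
Ratio of FPKM (log axis) of a member to its paralog, partner or upstream factor within each library, wt as circles and ko as squares, with lines through the means of 2 libraries and a dotted line at equal levels. Spib over Spi1, Irf8 over Irf4 and Bach2 over Bach1 cross equal levels between ActB and PrePB, and Foxo1 over Foxo3 crosses between PrePB and PB.

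More members were called at the first step than at the second. In wt PrePB against ActB, 6 of 10 were lower where 26.3% of all tested genes were, and 2 were higher where 27.1% were. In ko PrePB against ActB, 6 were lower against 27% of all genes and 3 higher against 27.1%. In wt PB against PrePB 4 were lower (Pax5, Spib, Ebf1 and Irf8) against 3.7% of all genes and 0 higher against 5.02%, and in ko 4 were lower (Pax5, Ebf1, Irf8 and Ets1) against 4.24% and 0 higher against 6.57%. Without wt replicate 1, the libraries with high Xist, the second-step changes in wt were -1.76 for Spib, -0.67 for Ebf1 and -0.68 for Irf8. None of these members kept its second-step call in that fit. Each wt group is then 1 library that is assumed to vary as the ko groups do. Over both steps, 6 were lower and 2 higher in wt PB against ActB, with 31% of all genes called each way, and in ko 6 were lower against 30.9% and 1 higher against 31.2%. The median log2 change of the 10 was -1.15 in wt PB against ActB and -1.05 in ko, where the median of all tested genes was -0.01 in each. The scaling bears on these counts. After rescaling to equal totals the median of all genes moved to -0.38 in wt and -0.28 in ko. The share of higher genes among all those called went from 50% to 26.9% in wt and from 50.3% to 32.1% in ko. The number of all genes called lower went from 3432 to 5817 in wt and from 3422 to 5140 in ko. Beside this larger background, the members stood at 8 lower with 1 higher in wt and 7 lower with 1 higher in ko. Pou2af1 and the 6 falling members kept their calls there.

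**Figure D3:**
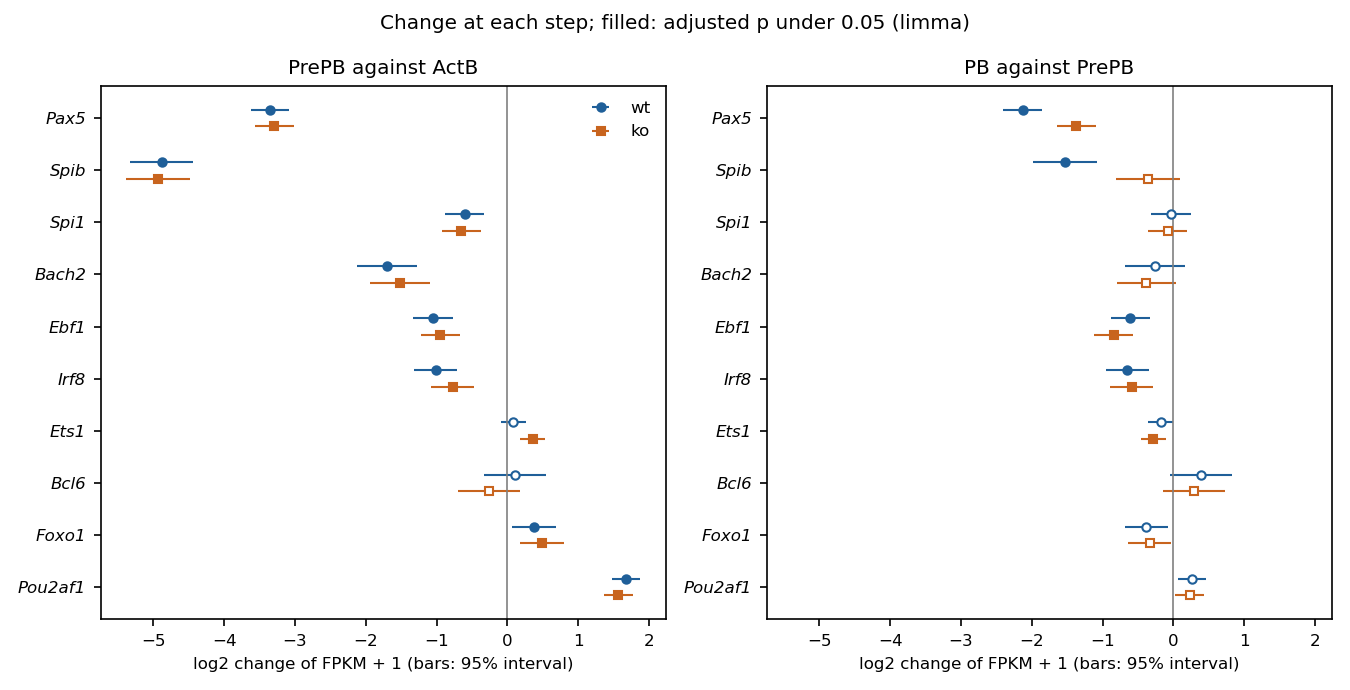
Log2 change of FPKM + 1 with its 95% interval for each member at the first step (PrePB against ActB) and the second (PB against PrePB), wt as circles and ko as squares, filled where the adjusted p was under 0.05. Spib and Pax5 lie farthest to the left at the first step, and at the second only Pax5 and wt Spib lie below -1.

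The difference between the steps was itself tested, as the change at the second step minus that at the first. It was called for Spib (3.35 in wt, adjusted p = 9.8e-05, and 4.57 in ko, adjusted p = 1.37e-05), Pax5 (1.23 and 1.92) and Bach2 (1.44 and 1.13), which all fell less at the second step. The opposite sign was called for Pou2af1 (-1.41 in wt, adjusted p = 0.000145, and -1.33 in ko), for Foxo1 (-0.76 and -0.82, adjusted p = 0.046 and 0.0315) and, in ko, for Ets1 (-0.64, adjusted p = 0.00743). These make 3 higher against 9.82% of all genes and 2 lower against 12.9% in wt, and 3 higher against 10.9% and 3 lower against 13.5% in ko. Bach2 in wt lost its call without replicate 1 of wt PrePB (0.82, adjusted p = 0.112), and in ko without any 1 of the 6 libraries (adjusted p 0.0525 to 0.233). Foxo1 lost it without replicate 2 of PrePB (-0.34 in wt, adjusted p = 0.441, and -0.53 in ko, adjusted p = 0.255) and without 3 other libraries in each genotype, and Ets1 without replicate 1 of ko PrePB (adjusted p = 0.0682). Foxo1 also lost its call in both genotypes without a filter (adjusted p = 0.0957 in wt and 0.0698 in ko). In wt it lost it after rescaling as well (-0.67, adjusted p = 0.0663), and Bach2 in ko lost its call without a filter (0.0736). Without the libraries with high Xist, the difference in wt was 0.63 for Bach2 and -1.09 for Foxo1. Spi1 missed the threshold (0.57 in both genotypes, adjusted p = 0.0876 and 0.0801). It passed in both genotypes with the replicate block (adjusted p = 0.0281 and 0.0254), with quantile normalization (0.0461 and 0.0392) and after rescaling (0.022 and 0.0367). In wt it also passed with a term for the pattern of low values (0.0397).

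Other factors of the B lineage gave a mixed picture, beside 31% of all genes called each way in wt and 30.9% lower and 31.2% higher in ko. Of 22 listed, 13 were lower and 4 higher in wt PB than in wt ActB, and 12 lower and 4 higher in ko, with medians of -0.44 and -0.51. Zbtb32, a repressor of antibody responses, fell from 298 and 366 to 6.56 and 7.44 FPKM in wt (-5.37, adjusted p = 1.01e-09). Bcl11a, needed for early B cells, fell by -4.48 and Zeb2 by -3.27, and Id2, an inhibitor of E proteins, by -1.78. Tcf3, the E protein that works with Ebf1, went from 122 and 133 to 91.7 and 99.7 FPKM (-0.41), and Arid3a (1.02) and Gfi1 (2.33) rose. Of 9 plasma cell factors, Prdm1 among them as the sort sets it, 8 rose and 0 fell in each genotype, with medians of 3.30 and 3.39. Those of lowest p included Xbp1, which expands the secretory apparatus (from 99.7 and 105 to 2363 and 2519 FPKM in wt, 4.56), the elongation factor Ell2 (3.30) and its partner Eaf2 (4.23). Of 19 partners and paralogs 15 were tested, and 6 were higher and 6 lower in wt PB than in ActB, with 6 higher and 5 lower in ko. Tle3, a Groucho corepressor that Pax5 and Runx factors can recruit, fell from 35.3 and 43.4 to 3.82 and 5.24 FPKM in wt (-2.87).

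Genes that the members regulate moved unevenly, with the same shares of all genes as background (31% each way in wt). Of 14 genes that Pax5 activates, 9 were lower and 2 higher in wt PB than in wt ActB, and 8 lower and 2 higher in ko. Cd72, an inhibitory co-receptor, went from 152 and 146 to 7.89 and 6.88 FPKM in wt (-4.16, adjusted p = 1.91e-09). Ciita, the coactivator of MHC class II genes, fell by -4.77 and Siglecg by -3.94, whereas Cd79a was at 697 and 919 in wt ActB, 1296 and 1422 in wt PrePB, and 586 and 741 in wt PB. Blnk (0.46) and Cr2 (2.24) were the 2 that rose in wt. Of 11 genes that Pax5 represses 9 were tested, and 7 rose and 2 fell in each genotype, with medians of 3.04 in wt and 2.79 in ko. Prdm1, whose rise the sort sets, is among the 7 (3.38 in wt). Cd28, better known as the costimulatory receptor of T cells, rose from 1.62 and 1.28 to 25.8 and 31.7 FPKM in wt (3.60). The 2 that fell were Flt3 (-1.31) and Lgals1 (-1.16). Jchain, which links polymeric antibodies, rose from 69.4 and 103 to 19054 and 22617 FPKM in wt (7.92).

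Of 6 targets of Ebf1, Spi1 or Spib 4 fell in each genotype, with log2 changes in wt for Btk (-0.90), Ms4a1 (-0.83), Blk (-0.77) and Cd79b (-0.50). Of 14 genes that Foxo1 activates 12 were tested, 6 higher and 6 lower in wt PB than in wt ActB and 5 higher and 6 lower in ko, so neither direction led. Those that fell included the homing receptor Ccr7 (-5.04) and the homing regulator Klf2 (-5.91) in wt, with Pik3ip1, an inhibitor of phosphoinositide 3-kinase, at -2.20. Those that rose included Bcl2l11, which encodes the death protein Bim (3.11), and Irs2 (2.47). Of 12 genes that Bach2 or Bcl6 represses, 7 were higher and 3 lower in PB than in ActB in each genotype, led by Prdm1 (3.38), which the sort selects, and Cdkn2a (2.91 in wt). Id2 (-1.78) and Trp53 (-0.70) were among the lower ones.

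**Figure D4:**
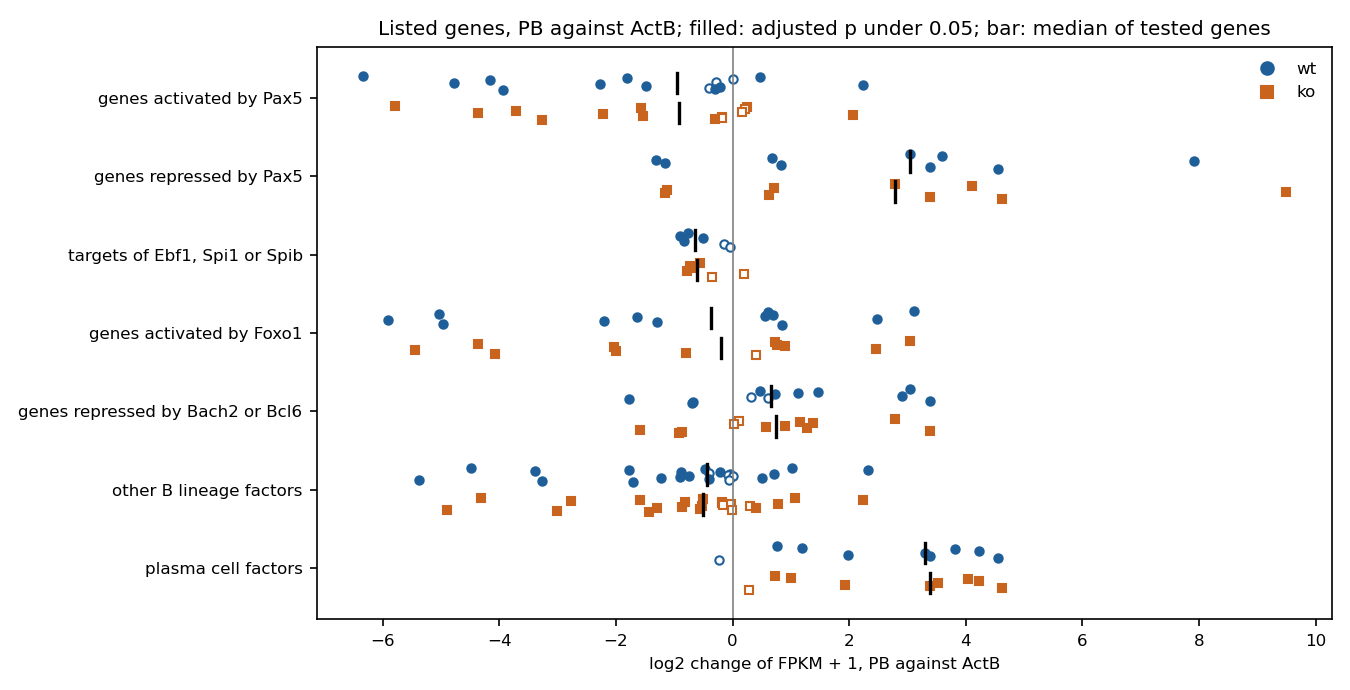
Log2 change of FPKM + 1 in PB against ActB for the tested genes of 7 lists, wt as circles and ko as squares, filled where the adjusted p was under 0.05, with a bar at the median. The genes that Pax5 represses and the plasma cell factors have medians between 2.79 and 3.39, while those that Foxo1 activates spread from Klf2 (-5.91) to Bcl2l11 (3.11) in wt. Prdm1, whose rise the sort sets, is in the lists of plasma cell factors and of genes that Pax5, or Bach2 or Bcl6, represses.

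Between the genotypes, members were called only in PB, but their median difference was not smaller before it. The median of the 10, ko minus wt, was 0.18 in ActB, 0.29 in PrePB and 0.16 in PB. The medians of all tested genes were 0.01, 0.01 and 0.03. In ActB no member was called by limma, where 0.0542% of all genes were called. An unadjusted p under 0.05 was found there for 1 member and for 893 of the 11069 tested genes. In PrePB no member was called, against 0.117% of all genes, and the unadjusted p was under 0.05 for 4 members and for 1665 genes. In PB, Pax5 and Spib were called, both higher in ko, against 0.407% of all genes. The ko PB libraries held 7.24 and 5.92 FPKM of Pax5 against 2.02 and 2.76 in wt PB, and 17.2 and 9.94 FPKM of Spib against 4.37 and 3.91. The differences were 1.17 for Pax5 (SE 0.12, adjusted p = 0.0031) and 1.46 for Spib (SE 0.20, adjusted p = 0.0148). As a share of the ActB level of the same genotype, ko PB kept 3.46% of Pax5 and 2.47% of Spib, against 1.6% and 0.944% in wt PB.

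These 2 calls were lost in several other fits, in which the differences were 1.01 to 1.17 for Pax5 and 1.09 to 1.52 for Spib. Neither held when only both PB groups were fitted (adjusted p = 0.201 for Pax5 and 0.216 for Spib), when a term for the pattern of low values was added (1.04, adjusted p = 0.113, and 1.37, adjusted p = 0.196), or without wt replicate 1, the libraries with high Xist (1.01, adjusted p = 0.141, and 1.52, adjusted p = 0.192). In the last of these fits each wt group is 1 library and the spread comes from the ko groups alone. Spib also lost its call without a filter (adjusted p = 0.0707), without either wt PB library (0.0811 and 0.131) and without replicate 1 of ko PB (1.09, adjusted p = 0.0553). Whether the genotype difference itself changed between stages was not resolved. The difference in PB minus that in ActB was 0.81 for Pax5 (adjusted p = 0.448) and 1.12 for Spib (adjusted p = 0.813), and the difference in PB minus that in PrePB was 0.75 and 1.17, with an adjusted p of 1 for both. No member was called for the change of the genotype difference from ActB to PrePB (0.0361% of all genes called), from PrePB to PB (0%) or from ActB to PB (0.0452%). The unadjusted p by limma was under 0.05 for 1 member and 395 genes in the first of these. It was under 0.05 for 2 members and 272 genes in the second, and for 2 members and 459 genes in the third.

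**Figure D5:**
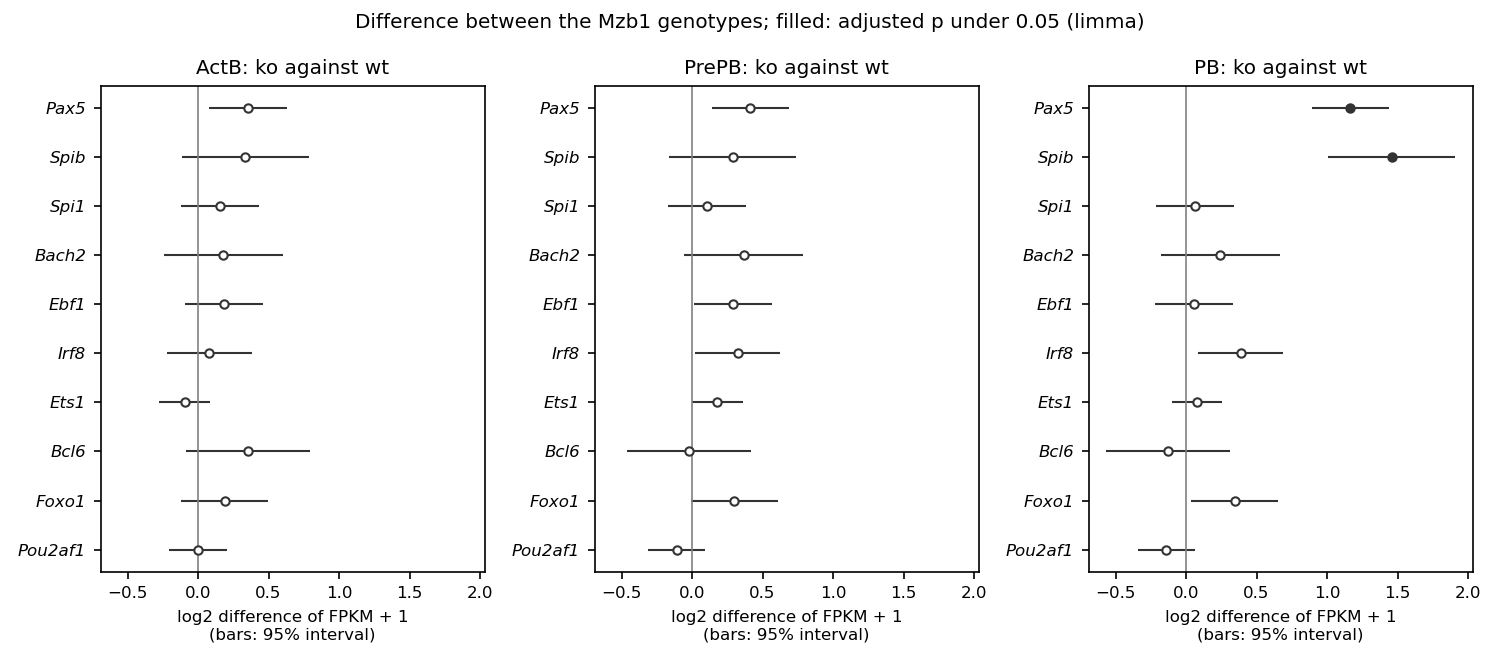
Log2 difference of FPKM + 1 between ko and wt in ActB, PrePB and PB for each member, with the 95% interval, filled where the adjusted p was under 0.05. Pax5 (1.17) and Spib (1.46) in PB are the 2 filled points, and the other intervals in PB lie between -0.57 and 0.69.

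For the other 8 members the PB interval reflects the spread between libraries and cannot separate the genotype from the pattern of low values. Irf8 (0.39, interval 0.09 to 0.69, adjusted p = 0.211) and Foxo1 (0.34, interval 0.04 to 0.65, adjusted p = 0.269) were higher in ko by point estimate. Pou2af1 (-0.14, interval -0.34 to 0.06), Spi1 (0.06, interval -0.22 to 0.34), Ebf1 (0.06, interval -0.22 to 0.33) and Ets1 (0.08, interval -0.10 to 0.26) had intervals within 0.4 either way. Bach2 (0.24, interval -0.18 to 0.66) and Bcl6 (-0.13, interval -0.57 to 0.31) had wider intervals.

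Few of the listed genes were called in ko against wt PB. Of the 14 genes that Pax5 activates 8 had an unadjusted p under 0.05, as did 1767 of the 11069 tested genes, and 1 was called, Cd72, at 15.3 and 14.2 FPKM in ko PB against 7.89 and 6.88 in wt PB (0.91, SE 0.13, adjusted p = 0.0148), and the median of the list was 0.36 against 0.03 for all genes. Siglecg was at 11.9 and 11.8 against 5.30 and 7.83 (0.78, adjusted p = 0.0981). Of the targets of Ebf1, Spi1 or Spib, Blk was called (0.56, adjusted p = 0.0419). Of the 12 genes that Foxo1 activates none was called by limma (5 had an unadjusted p under 0.05), and Ccr7 lay nearest to the threshold (1.01, adjusted p = 0.0541). Of the genes that Bach2 or Bcl6 represses, Cdkn2a was lower, at 80.6 and 103 FPKM against 206 and 177 (-1.06, adjusted p = 0.0292). None of the 22 other B lineage factors, the 9 plasma cell factors or the 9 tested genes that Pax5 represses was called by limma (7, 2 and 1 of them had an unadjusted p under 0.05), and Xbp1 was at -0.27 (adjusted p = 0.208).

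Among markers of myeloid cells 1 of the 3 tested was called in ko against wt PB. The 10 macrophage and granulocyte markers summed to 0.533 and 0.748 FPKM in wt PB and to 3.99 and 5.19 in ko PB, and to 86.6 to 92.5 in wt ActB and 128 to 135 in ko ActB. In ActB nearly all of the sum was Itgam (77.4 to 122 FPKM) and Adgre1 (7.84 to 28.2). Of the 3 tested, Itgam was higher in ko PrePB (12.1 and 14.3 FPKM against 2.46 and 3.44, 1.85, adjusted p = 0.000994) and in ko PB (1.06 and 1.67 against 0.152 and 0.197, 1.00, adjusted p = 0.0377). Lyz2, which marks macrophages and granulocytes, was at 1.40 and 3.80 FPKM in ko PB and at 0.316 and 0 in wt PB (adjusted p = 0.251). Cd14 lay the other way, at 0 and 0.074 FPKM in ko PB and 0.186 and 0.2 in wt PB. S100a9 was at 0 in all 12 libraries, S100a8 and Mpo in 11, and Csf1r was at most 0.121 FPKM. The part of these transcripts in the genotype difference of Pax5 and Spib was not tested.

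Across the 6 group means, the members most alike in profile were Ebf1 and Irf8, with a root mean square difference of 0.13 in centred log2 values, then Ets1 and Foxo1 (0.15) and Bach2 and Ebf1 (0.26), while Pax5 and Spib differed by 0.65. Among 8860 genes that reached a mean of 5 FPKM in some group, the 5 closest to Pax5 were Evl (0.23), Rasgrp2 (0.27), Zbtb32 (0.28), Ccr7 (0.28) and Ciita (0.32). Among those closest to Spib were Mpeg1 (0.23), Klf2 (0.33), Wfdc17 (0.40) and Tlr9 (0.41). Mpeg1, which encodes the pore protein perforin-2, had means of 100.2, 2.66 and 0.735 FPKM in wt ActB, PrePB and PB, and of 128, 5.0 and 2.55 in ko. Closest to Irf8 were Bbs4, Ehd2, Jakmip1, Pipox and Tspan32 (0.05 to 0.07). Closest to Foxo1 were Hes1 (0.04), Lipa, Pde4b, Nfatc1 and Slc25a37. Nfatc1, a factor of antigen receptor signalling, had means of 67.6, 99.9 and 68.5 FPKM in wt and 78.5, 115 and 96.5 in ko. Closest to Pou2af1 were Gorasp2 and B2m (0.05 each), Insig1, Dnajc25 and Cpeb2, and B2m, the light chain of MHC class I, went from means of 1950.0 to 8031 FPKM in wt and 2009 to 7366 in ko. These are likenesses over 6 points that share libraries and carry no test.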

How the data were processed

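RNA was measured in 12 libraries, 6 groups of 2. The authors deposited 1 file of FPKM values per library. The submitters' processing notes list TopHat2 2.0.14, bcl2fastq (0.3.1, 2.17.1.14), Cuffnorm and Cufflinks (both 2.2.1), Cuffdiff and genome build mm9. The annotation, library scaling and filters are not given in the sources used here. Per the labels, libraries were made with a stranded mRNA kit after oligo-dT selection. The files hold no counts, so counting error could not be computed.

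Values were analysed as log2(FPKM + 1). A gene was tested if 2 or more libraries reached 1 FPKM (11069 genes), with limma 3.58.1 (trend) in R 4.3.3, 1 coefficient per group and 6 residual and 4.49 prior degrees of freedom. Tests were two-sided, adjusted by Benjamini-Hochberg over all tested genes of a comparison and called under 0.05. The model was tested on simulated data. The pattern of low values was read from genes below 0.5 FPKM, as the share of genes at the most frequent ratio between 2 libraries. That share was 9.6% to 21.7% and 8.14% to 17.5% of low genes within the 2 patterns and 2.25% to 5.16% across them.

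The members and gene lists were chosen with earlier results of these data known. Named genes were the 10 members, Mzb1, Prdm1 and Sdc1, up to 4 called genes of lowest p per list (the 2 of lowest p where fewer than 2 were called) in wt PB against ActB and in the ko comparisons, 5 genes of closest profile for 5 members, and named paralogs. Further listed genes were named after their values were seen. Plots used Python 3.11.15 and matplotlib 3.10.9. Results of some listed genes are not reported here.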

Additional observations from a re-analysis of the deposited data

How the results depend on the processing

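Over 2200 member and setting combinations, 2087 stayed on their side of the threshold, 96 lost a call, 16 gained one and 1 reversed: Ets1 in ko PB against ActB, -0.22 after rescaling to equal totals. Counts of called members that moved by over 1.5 times are these. For ko PB against PrePB (4 called) no filter gave 2, the compared groups alone 1, no Xist-high libraries 2 and a minimum log2 change of 1 gave 1. For wt PB against PrePB (4 called) no Xist-high libraries gave 1 and the minimum change 2. For ko against wt PB (2 called) no filter gave 1, and the compared groups alone, the pattern term and no Xist-high libraries gave 0. For the wt step difference (5 called) no Xist-high libraries gave 3, and for ko PrePB against ActB (9 called) the minimum change gave 4. Leaving out 1 library at a time gave 2 to 3 for ko PB against PrePB, 2 to 3 for wt PB against PrePB, 1 to 2 for ko against wt PB, 8 to 9 for ko PrePB against ActB and 4 to 5 for the wt step difference. Over all tested genes, the 966 called in wt PB against PrePB became 58 without the Xist-high libraries, 532 with the compared groups alone, 1558 with the replicate block and 1455 after rescaling, and the 1196 in ko became 724, 489 and, with the minimum change, 182. The 45 called in ko against wt PB became 8 with the compared groups alone, 4 with the pattern term, 9 without the Xist-high libraries, 27 without a filter and 71 after rescaling. Leaving out 1 library at a time gave 248 to 418, 377 to 808 and 10 to 41 for these 3 comparisons, each with the lone library of a group assumed to vary as the others do. Fewer libraries leave fewer degrees of freedom, and the cause of each change was otherwise not tested.

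Same-numbered libraries of a genotype share a code in the deposited file names, which the labels do not explain. Their deviations correlated across genes at r = 0.046 to 0.316 within wt, 0.0956 to 0.291 within ko -0.11 to -0.047 between the genotypes of 1 population and -0.0491 to 0.0693 between genotypes and populations. With the replicate block, the member counts were 5 in wt PB against PrePB, where Foxo1 was added (-0.38, adjusted p = 0.0479), 2 in ko against wt PB, 6 and 7 for the wt and ko step differences, where Spi1 was added, and otherwise the same numbers.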
